A study of Mus musculus with 12 samples.

Results

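The mitochondrial carrier family Slc25 was followed in ventricle RNA of mice with and without alpha2, a catalytic subunit of the energy-sensing AMP-activated protein kinase (AMPK). Members were the probes whose gene symbol in the platform annotation starts with Slc25a, with Slc25a20 left out. This rule found 73 probes of 43 genes among 41174 probes. Of these, 68 probes of 40 genes had at least 2 values in every combination of genotype and dye and were tested, among 25821 features (genes, or probes without 1 gene symbol).

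The arrays held heart RNA of 6 wild-type mice (WT, labelled AMPK alpha 2 +/+) and 6 knockout mice (KO, labelled AMPK alpha 2 -/-). All were of the strain C57B6 and 7 months old, had standard chow, and were anaesthetised with pentobarbital before the hearts were taken. The labels do not say how the allele was made, which part of the gene it lacks, or whether a promoter or Cre limits it to some cells. Each animal had 1 array with 2 colours, on which its RNA was set against a commercial reference mixture from 11 mouse cell lines. Heart RNA carried the dye Cy3 in replicates 1 to 3 of each genotype and Cy5 in replicates 4 to 6.

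Carriers of this family sit in the inner mitochondrial membrane, a few in other membranes, and move nucleotides, phosphate, carboxylates, amino acids, cofactors and iron between cytosol and matrix. In heart muscle the ADP/ATP and phosphate carriers feed ATP synthase and export its product, and the malate-aspartate shuttle brings reducing equivalents of glycolysis into the matrix. Several functions are held by related genes that tissues use in different proportions, such as Slc25a4 in heart and skeletal muscle and Slc25a5 in dividing cells. AMPK is known to act upstream of transcriptional regulators of mitochondrial content.

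The region before the transcription start is shown for the members of 2 such pairs, because the members of each pair lay far apart in heart over reference. Each line gives 250 bases of RefSeq sequence on the gene's own strand (build GRCm38.p6), and capitals mark the motif CCAAT, searched on both strands. The windows are chr8:46211063-46211312 (minus strand) for Slc25a4, chrX:36795347-36795596 (plus strand) for Slc25a5, chr6:6217174-6217423 (minus strand) for Slc25a13 and chr2:71367756-71368005 (minus strand) for Slc25a12.
Slc25a4: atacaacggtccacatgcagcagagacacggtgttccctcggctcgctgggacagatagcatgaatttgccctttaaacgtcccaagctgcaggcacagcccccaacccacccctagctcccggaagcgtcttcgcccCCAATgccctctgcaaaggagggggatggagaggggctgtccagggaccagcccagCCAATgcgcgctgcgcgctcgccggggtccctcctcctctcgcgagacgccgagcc
Slc25a5: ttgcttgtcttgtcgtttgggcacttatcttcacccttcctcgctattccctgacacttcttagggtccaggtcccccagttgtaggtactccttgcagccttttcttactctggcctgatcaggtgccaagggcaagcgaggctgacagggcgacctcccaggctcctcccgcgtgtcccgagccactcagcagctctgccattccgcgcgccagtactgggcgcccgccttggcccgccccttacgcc
Slc25a13: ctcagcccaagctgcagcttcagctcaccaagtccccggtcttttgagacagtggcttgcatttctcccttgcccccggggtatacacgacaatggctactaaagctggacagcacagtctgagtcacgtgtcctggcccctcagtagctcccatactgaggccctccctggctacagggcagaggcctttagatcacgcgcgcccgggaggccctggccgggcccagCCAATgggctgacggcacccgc
Slc25a12: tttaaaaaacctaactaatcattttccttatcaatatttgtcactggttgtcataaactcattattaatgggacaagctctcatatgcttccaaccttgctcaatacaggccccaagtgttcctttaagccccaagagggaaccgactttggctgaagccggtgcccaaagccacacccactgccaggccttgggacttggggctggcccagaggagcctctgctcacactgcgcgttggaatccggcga

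CCAAT matched 2 times in the window of Slc25a4 and 1 time in that of Slc25a13, the members with the higher ratios of their pairs, and not in those of Slc25a5 and Slc25a12. Over the family it was found in 16 of 33 windows, against 33.85% of all 32851 windows of this length. TATAA (22.785% of all windows) and AAGGTCA (4.079%), also searched on both strands, had no match in these 4 windows. A match describes the letters of the window and is not evidence of a binding site. The share of G and C ran from 49.6% for Slc25a12 to 64.8% for Slc25a4.

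Values are the authors' log ratios of heart over reference, read here as log2 because the labels give no base; natural logarithms would scale all of them by 1 factor. At 0 both RNAs gave the same signal, so a ratio shows how far heart exceeds the cell lines and not how abundant a transcript is. The direction was checked with markers: all 12 cardiomyocyte markers were above 0 on every array (median 5.79), and all 9 measured markers of dividing cells were below 0 on every array (median -2.90). Array medians ran from -0.029 to 0.068, and between 0.306% and 41.7% of an array's cells were empty, most in KO replicate 4 and WT replicate 3 (39.2%). The atrial gene Myl7 stood out in WT replicate 2 (7.19) and KO replicate 1 (7.09). So did Myl4 (5.64 and 5.56), Sln (3.79 and 4.38) and Dkk3 (3.31 and 1.44). The atrial gene Nppa did not (5.58 and 5.08), and Bmp10 read -0.12 in WT replicate 2. The lung gene Sftpc stood out in KO replicate 6 (6.13). These 3 arrays are left out together in a setting below. Arrays kept there also had high atrial readings, with Myl4 at 3.67 in WT replicate 6 and Myl7 at 4.10 in KO replicate 5. The targeted gene Prkaa2 had 1 probe, which read 4.05, 3.99, 4.06, 4.23, 4.09 and 4.16 in the WT animals and 3.93, 3.74, 3.58, 3.94 and 4.27 in the KO animals (KO replicate 4 had no value). These groups overlapped, and since neither the deleted part nor the place of the probe is given, the probe does not check the genotype labels. Depth has no counterpart on arrays, and the number of animals limits the precision.

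Heart exceeded the cell lines in more carriers than it fell below them. Of the 40 members, 19 (47.5%) were above the reference (limma adjusted p under 0.05), against 24.8% of all features tested, and 10 (25%) were below it, against 26.6%. Among the 17837 features that are named genes, as all members are, 28.9% were above and 30.6% below. The median level was 0.14 over the members and 0.02 over all features. The levels ran from 3.72 for Slc25a4 to -1.53 for Slc25a1, and 7 members (17.5%) exceeded 1, against 7.89% of all features. In 13 members every measured array was above 0, in 6 every measured array was below 0, and 21 had arrays on both sides. The level of a bulk tissue cannot tell fewer cells of a type from less RNA per cell.

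**Figure D1:**
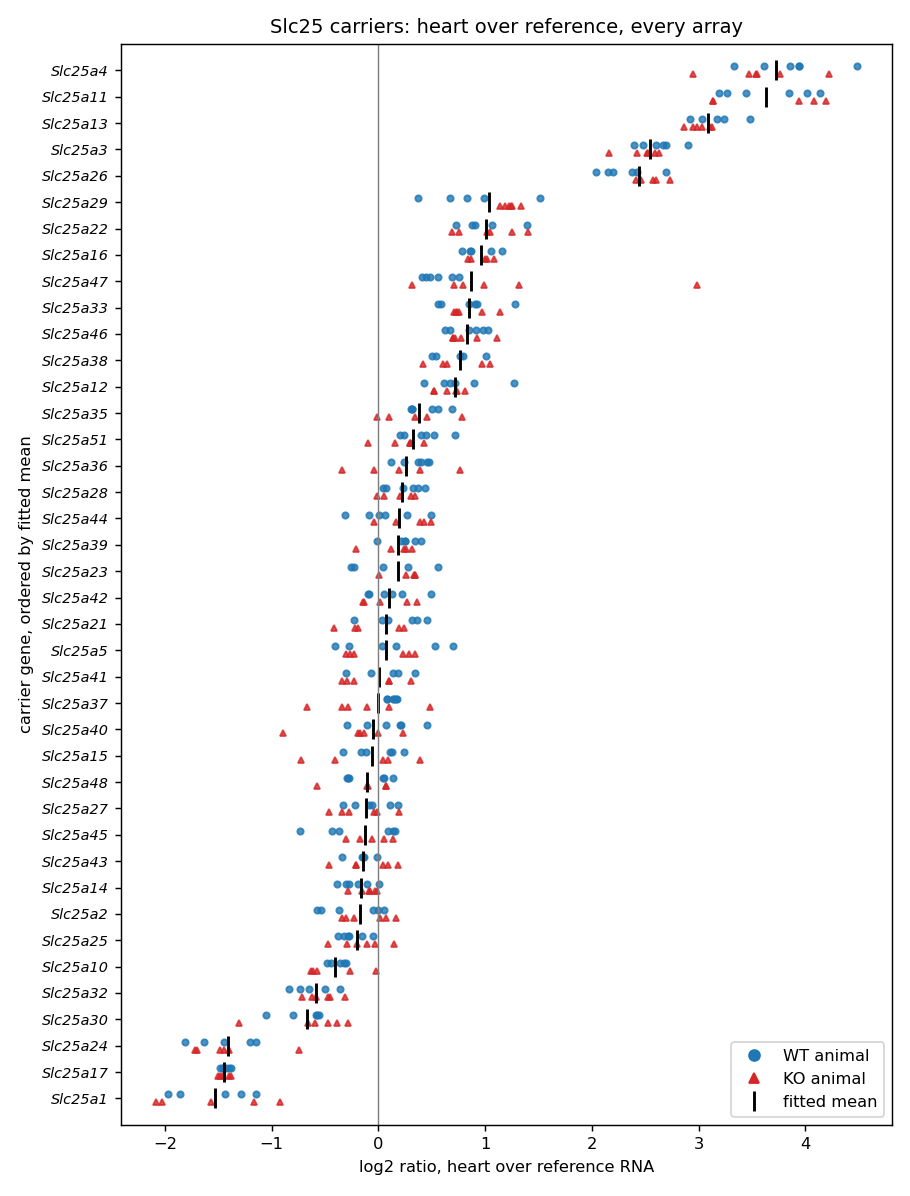
Log2 ratio of heart over reference RNA for the 40 tested Slc25 carriers, ordered by fitted mean; points are single animals, circles WT and triangles KO, and the bars mark the fitted means. Slc25a4, Slc25a11, Slc25a13, Slc25a3 and Slc25a26 stand above 2 on the log2 scale, and WT and KO animals overlap in every carrier.

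The carriers that exchange ADP, ATP and phosphate were led by Slc25a4, the adenine nucleotide translocator of striated muscle. Its log2 ratio was 3.33 at the lowest, 3.90 at the median and 4.49 at the highest in WT, and 2.95, 3.54 and 4.22 in KO. All 12 animals were far above the reference and the genotypes overlapped; the fitted level was 3.72 ± 0.09 (SE), 13.2-fold over the reference. Slc25a5, its relative of dividing cells, ran from -0.41 over a median of 0.10 to 0.70 in WT and from -0.30 over -0.002 to 0.35 in KO; the lowest, median and highest animal are given in this form for other members. Its animals lay on both sides of the reference, with a level of 0.07 ± 0.08 (SE) that was not called (limma adjusted p = 0.554). In Cy3 alone the level of Slc25a5 was 0.27 and called, and in Cy5 alone it was -0.13.

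Within an array, Slc25a4 exceeded Slc25a5 by 3.66 ± 0.37 (SD, n = 12), with a range of 3.25 to 4.32, so the gap held in every animal. WT animals had a gap of 3.74 ± 0.40 (SD, n = 6). For KO animals it was 3.57 ± 0.34 (SD, n = 6), a distance smaller than the spread within a genotype. Slc25a31, the translocator of the germ line, had 5 WT and 3 KO values between -0.41 and 0.18 and was not tested.

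Slc25a3, the phosphate carrier, ran from 2.40 over 2.63 to 2.90 in WT and from 2.16 over 2.52 to 2.63 in KO. Every animal was above the reference, with overlapping genotypes and a level of 2.55 ± 0.05 (SE). This level averages 3 probes that lay far apart: their means over the arrays were 4.89, 2.54 and 0.19, a gap of 4.70 between the outer ones. Mouse and human Slc25a3 are known to be spliced into a muscle form and a general form; which form each probe reads was not tested.

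**Figure D2:**
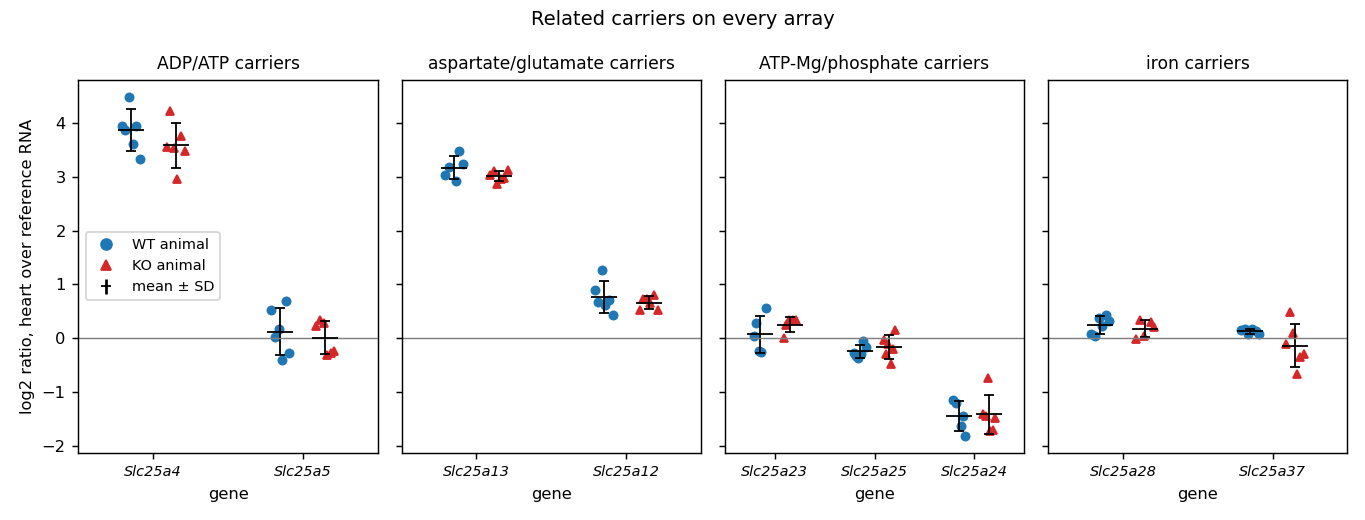
Log2 ratio of heart over reference RNA for related carriers, 1 panel a group of relatives; circles are WT animals, triangles KO animals, and bars the mean ± SD. Slc25a4 lies above Slc25a5 and Slc25a13 above Slc25a12 on every array with both values.

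The carriers of the malate-aspartate shuttle were all above the reference. Slc25a11, the oxoglutarate/malate carrier, ran from 3.19 over 3.65 to 4.14 in WT (6 animals) and from 3.14 over 3.94 to 4.198 in KO (5 animals). Its animals split by dye and not by genotype: the level was 4.04 with heart RNA in Cy3 and 3.24 in Cy5. The fitted level was 3.64 ± 0.05 (SE).

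Slc25a13, the aspartate/glutamate carrier known as citrin, ran from 2.92 over 3.18 to 3.48 in WT (5 animals) and from 2.87 over 3.01 to 3.12 in KO. Slc25a12, the related carrier aralar that is known as the isoform of heart and brain, ran from 0.43 over 0.70 to 1.27 in WT and from 0.52 over 0.69 to 0.81 in KO. All animals were above the reference in both genes, and the genotypes overlapped in both.

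Citrin thus exceeded the reference by more than aralar did. Within an array Slc25a12 lay 2.42 lower than Slc25a13 (mean -2.42 ± 0.24, SD, n = 11), on every array with both values (-2.81 to -2.14). The size of this gap rests on the probes of Slc25a12. Its 3 probes had means of 2.05, 0.13 and -0.06, and only the first is annotated to a RefSeq messenger RNA. With the probes that carry such an accession, a choice made after seeing the data, the gap was -1.03. The ratios also depend on the cell lines in the reference, so they do not say which of the 2 transcripts is more abundant in heart.

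Other carboxylate carriers were at or under the reference. Slc25a1, the citrate carrier that exports carbon for fatty acid synthesis, was the lowest of the family. It ran from -1.97 over -1.44 to -1.14 in WT (5 animals) and from -2.08 over -1.57 to -0.93 in KO (5 animals), with a level of -1.53 ± 0.12 (SE), 2.89-fold under the reference. All its animals were below the reference and the genotypes overlapped. Slc25a10, the dicarboxylate carrier, had a level of -0.41 and was below 0 on all 10 measured arrays. Slc25a21, the oxodicarboxylate carrier, had a level of 0.07 that was not called, but was called at 0.30 in Cy5 alone.

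The ATP-Mg/phosphate carriers and the coenzyme A carriers had 1 of 7 members above the reference and 3 below. Over all features 24.8% were above and 26.6% below. Slc25a24 ran from -1.81 over -1.45 to -1.15 in WT (5 animals) and from -1.72 over -1.47 to -0.74 in KO, all under the reference. Its level was -1.41 ± 0.07 (SE), from 2 probes of the same RefSeq transcript with means of -2.45 and -0.41. Slc25a23, a relative with the same function, ran from -0.26 over 0.04 to 0.55 in WT (5 animals) and from 0.01 over 0.34 to 0.34 in KO (5 animals). Its animals lay around the reference and the level of 0.18 was not called, although without WT replicate 4 it was called at 0.26.

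Slc25a23 exceeded Slc25a24 by 1.61 ± 0.42 (SD, n = 9) and on every array with both values (1.08 to 2.37). It exceeded Slc25a25, a further relative, by 0.36 ± 0.25 (SD, n = 10), from 0.03 to 0.71. Slc25a25 ran from -0.37 over -0.28 to -0.05 in WT and from -0.48 over -0.15 to 0.15 in KO, with a level of -0.20 that was below the reference on 11 of 12 arrays. Slc25a41, another member of the group, was not called at 0.01.

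Slc25a16, a candidate coenzyme A carrier, was above the reference on all 10 measured arrays with a level of 0.96. Slc25a42, the coenzyme A carrier, was at 0.10 and not called. Slc25a17, the carrier of peroxisomes, was below it in every animal, from -1.48 over -1.44 to -1.38 in WT and from -1.50 over -1.47 to -1.38 in KO (5 animals). It had the tightest animals of the family, with an SD of 0.04 in WT and 0.05 in KO. Its level was -1.44 ± 0.04 (SE), and its 3 probes had means of -1.13, -1.67 and -1.52.

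Among the amino acid carriers 5 of 7 were above the reference and 1 was below, against 24.8% and 26.6% of all features. Slc25a26, which imports the methyl donor S-adenosylmethionine, ran from 2.04 over 2.29 to 2.70 in WT and from 2.42 over 2.58 to 2.73 in KO (5 animals). All animals were above the reference, and its 2 probes had means of 2.94 and 1.88. The level was 2.44 ± 0.06 (SE), 5.42-fold over the reference. Slc25a29, a carrier of basic amino acids, had a level of 1.04, with probes at 1.72 and 0.41.

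Slc25a22, a glutamate carrier, ran from 0.73 over 0.91 to 1.40 in WT (5 animals) and from 0.69 over 1.03 to 1.40 in KO. All animals were above the reference at a level of 1.01 ± 0.08 (SE). Its relative Slc25a18 had values of -0.34 to 0.43 in 6 WT and 3 KO animals, too few for the test. Slc25a38, which brings glycine in for haem synthesis, was at 0.77, and Slc25a44, a carrier of branched-chain amino acids, at 0.19. Of the ornithine carriers, Slc25a15 was at -0.06 and not called, and Slc25a2 was at -0.18 and only just called (limma adjusted p = 0.0487), a call lost in 15 of 26 alternative settings. The call of Slc25a44 was lost in 4 of 25, with a level of 0.03 in Cy3 alone.

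The iron carriers of the inner membrane, called mitoferrins, were near the reference. Slc25a28, mitoferrin 2 of most tissues, ran from 0.04 over 0.28 to 0.44 in WT and from -0.01 over 0.20 to 0.34 in KO (5 animals), and its level of 0.22 was called. Slc25a37, mitoferrin 1 of red cell precursors, ran from 0.08 over 0.14 to 0.18 in WT and from -0.67 over -0.20 to 0.49 in KO, and its level of -0.003 was not called. Slc25a28 minus Slc25a37 was 0.16 ± 0.26 (SD, n = 11), less than its spread over animals.

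The pyrimidine nucleotide carriers were both above the reference. Slc25a33 ran from 0.56 over 0.88 to 1.28 in WT and from 0.71 over 0.75 to 1.14 in KO. Slc25a36 ran from 0.12 over 0.38 to 0.47 in WT and from -0.34 over 0.19 to 0.76 in KO (5 animals). Slc25a33 was above 0 in every animal and Slc25a36 in 9 of 11. Slc25a36 minus Slc25a33 was -0.58 ± 0.31 (SD, n = 11) and below 0 on every array with both values.

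The glutathione carriers did not separate. Slc25a39 ran from -0.01 over 0.25 to 0.40 in WT and from -0.21 over 0.24 to 0.32 in KO (5 animals). Slc25a40 ran from -0.30 over 0.14 to 0.46 in WT and from -0.90 over -0.16 to 0.23 in KO. Their difference was 0.17 ± 0.32 (SD, n = 11), and only Slc25a39 was called above the reference (level 0.18, against -0.05 for Slc25a40).

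Of the remaining cofactor carriers, Slc25a51, which imports NAD, was above the reference at 0.33, with probes at 0.64 and -0.01. Slc25a32, the carrier of folate and flavin, ran from -0.84 over -0.65 to -0.36 in WT (5 animals) and from -0.72 over -0.53 to -0.32 in KO. All its animals were under the reference, at a level of -0.58 ± 0.05 (SE).

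The relatives of the uncoupling proteins were not above the reference. Slc25a30 ran from -1.05 over -0.58 to -0.56 in WT (5 animals) and from -1.30 over -0.53 to -0.28 in KO, all below the reference, at a level of -0.67 ± 0.09 (SE). Slc25a14 was below the reference at -0.16, with probes at 0.09 and -0.42, a call lost in 2 of 26 alternative settings. Slc25a27 was not called at -0.11. Among carriers of other or little known function, Slc25a46, which sits in the outer membrane and bears on mitochondrial shape, was at 0.83, Slc25a47 at 0.87 and Slc25a35 at 0.38. Slc25a43 (-0.14) was called below the reference, a call lost in 8 of 25 alternative settings, and with heart RNA in Cy5 alone its level was -0.0006. Slc25a45 (-0.13) and Slc25a48 (-0.10), at nearly the same level, were not called. Slc25a34 had 5 WT and 4 KO values from -0.33 to 1.34 and was not tested.

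Several probes of 1 gene often gave unequal ratios. Of the 40 tested members, 19 had 1 tested probe and 21 had several. In 5 of the 21 the probes differed by more than 1 in level: Slc25a3 by 4.70, Slc25a12 by 2.11, Slc25a24 by 2.04, Slc25a29 by 1.32 and Slc25a26 by 1.06. In 6 members the probes lay on both sides of the reference: Slc25a12, Slc25a14, Slc25a25, Slc25a37, Slc25a40 and Slc25a51. For these genes the level depends on which probes are read, and the cause was not tested.

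**Figure D3:**
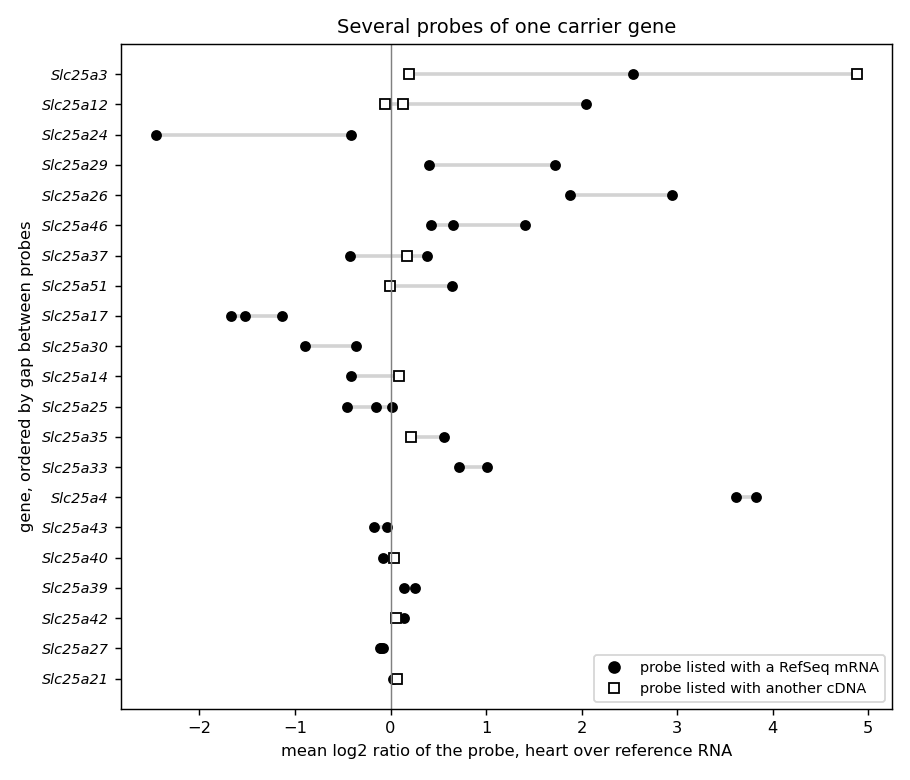
Mean log2 ratio of heart over reference RNA for each tested probe of the carriers with several probes, ordered by the gap between the outer probes. Slc25a3 spans 0.19 to 4.89, and 5 genes have a gap over 1.

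The 4 carriers listed as heart isoforms (Slc25a3, Slc25a4, Slc25a11 and Slc25a12) were all above the reference, with a median level of 3.09. Of the other 36 members, 15 (41.7%) were above and 10 (27.8%) below, against 24.8% and 26.6% of all features. Their median level was 0.07. The list follows knowledge of the tissue, but it was written with earlier results of these data known, and several members outside it, among them Slc25a13 and Slc25a26, exceeded the reference by more than Slc25a12 did. Levels moved with dye for single members, as for Slc25a11, but the dyes were balanced over the genotypes.

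No carrier differed between KO and WT past the threshold. Of the 40 members 0 were called by limma (adjusted p from 0.899 to 0.999), against 0.00387% of all features, which is 1 gene. An unadjusted p under 0.05 was found for 2 members (5%), against 5.33% of all features. Of these, 1 was higher in KO, against 2.49% of all features, and 1 was lower, against 2.84%. The median difference was -0.02 on the log2 scale over the members and -0.0009 over all features. Higher values in KO were found for 15 members (37.5%), against 49.7% of all features, and lower ones for 25. In 0 members did WT and KO animals separate without overlap, against 0.465% of all features.

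The differences were small and their intervals were not. In 32 members the fitted difference was within 0.2 of 0. The 95% interval stayed within 0.5 of 0 for 29 members and within 1 for 39, with a median SE of 0.13 for the members, as for all features. A change of 0.5 on the log2 scale was recovered in 13 of 50 simulated features and one of 1 in 48 of 50. This simulation of 25821 features had normal errors and held 50 changed features at each of 0.5, 1, 1.5 and 2. In the data 1 feature was called. With more changed features the adjusted threshold is easier to pass, so these recoveries can overstate what the test on the data could detect. Smaller changes in a carrier may therefore not have been detectable. In 20 of the 40 members the difference had opposite signs between the dyes, that is between the Cy3 and the Cy5 animals. The share over all features was not computed.

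**Figure D4:**
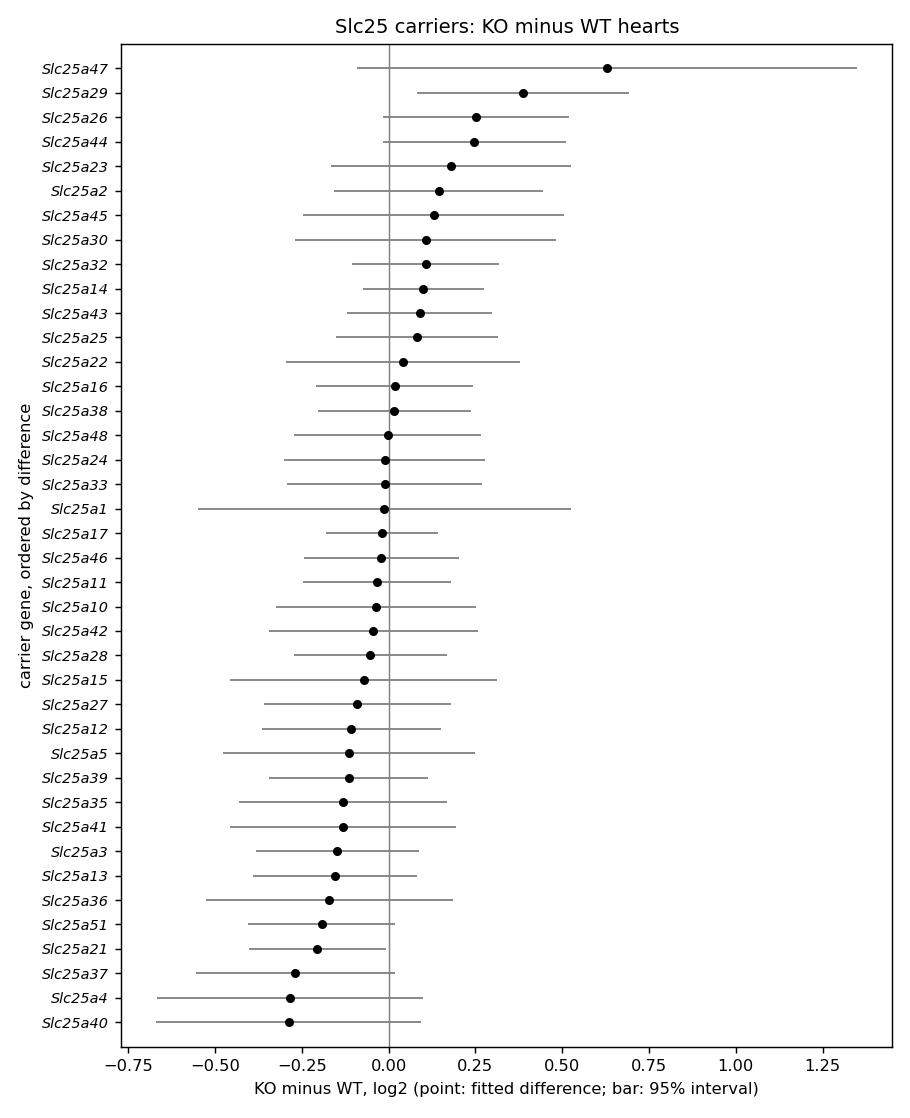
Fitted KO minus WT difference of each tested Slc25 carrier on the log2 scale, with its 95% interval as a bar, ordered by size. The points run from -0.29 for Slc25a40 to 0.63 for Slc25a47, and no difference passed the limma threshold.

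Slc25a29 had the smallest p of the family. Its log2 ratio was 0.67, 0.37, 0.99, 1.51 and 0.83 in the WT animals (WT replicate 3 had no value), and 1.14 at the lowest, 1.23 at the median and 1.33 at the highest in KO. The KO animals lay close together, above 4 of the 5 WT animals and below the remaining one. The difference was 0.39 ± 0.14 (SE, limma unadjusted p = 0.0171, adjusted p = 0.899). It was 0.66 with heart RNA in Cy3 and 0.17 in Cy5, and 0.29 without the 3 arrays left out for atrial or lung transcripts.

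The other members with the smallest p among higher values were Slc25a44, Slc25a26 and Slc25a47. Slc25a44 ran from -0.31 over 0.03 to 0.49 in WT and, in the 5 KO animals with a value, was 0.42, -0.04, 0.17, 0.39 and 0.50. The groups overlapped at a difference of 0.25 ± 0.12 (SE, limma adjusted p = 0.935). Slc25a26, whose values are given above, differed by 0.25 ± 0.12 (SE, limma adjusted p = 0.935), and its lowest KO animal lay above 4 of the 6 WT animals. Without the 2 arrays with most empty cells, the difference of Slc25a26 was 0.36.

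Slc25a47, a carrier known from liver, had the largest difference, and it rested on 1 array. In WT it ran from 0.41 over 0.52 to 0.76, and in KO from 0.31 over 0.89 to 2.99. KO replicate 6 alone read 2.99, and no other array of either genotype exceeded 1.32. The difference was 0.63 ± 0.33 (SE, limma adjusted p = 0.935), 0.26 without KO replicate 6 and 0.20 without the 3 arrays left out for atrial or lung transcripts. The KO mean without replicate 6 was 0.82 ± 0.37 (SD, n = 5).

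The same array held transcripts of liver and lung. The liver genes Alb, Fgb and Apoa1 read 5.90, 6.02 and 4.64 in KO replicate 6 and at most 0.57, 0.81 and 0.63 elsewhere. Over the 6 measured liver markers of 7 listed, the array median ran from 0.09 to 0.75 in WT and from -0.22 to 5.21 in KO. For 5 lung markers it ran from -0.06 to 0.35 and from 0.07 to 3.75. The part of these transcripts in the value of Slc25a47 was not tested.

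Among lower values in KO the smallest p belonged to Slc25a21, Slc25a37, Slc25a51 and Slc25a40. Slc25a21 ran from -0.23 over 0.20 to 0.46 in WT and was -0.19, -0.22, -0.41, 0.24 and 0.19 in the 5 KO animals with a value. With the dyes pooled the groups overlapped widely, at a difference of -0.20 ± 0.09 (SE, limma unadjusted p = 0.044, adjusted p = 0.930). The level of Slc25a21 moved with dye, from -0.16 in Cy3 to 0.30 in Cy5. Its difference was -0.24 in Cy3 and -0.16 in Cy5. Slc25a51 ran from 0.21 over 0.42 to 0.72 in WT and from -0.10 over 0.29 to 0.43 in KO, at a difference of -0.19 ± 0.10 (SE, limma adjusted p = 0.935). It lies on chromosome 4, as does Prkaa2, and so does Slc25a33, which differed by -0.01.

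Slc25a37 differed by -0.27 ± 0.13 (SE, limma adjusted p = 0.935), and the low values came from 3 animals of 1 dye. KO replicates 4 to 6 read -0.67 to -0.29, while the other 9 arrays read -0.10 to 0.49. The difference was 0.02 with heart RNA in Cy3 and -0.56 in Cy5. Of its 3 probes 1 carried most of it, with a difference of -0.47 against -0.12 and -0.08 for the others.

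Markers of red cells did not all follow this order. Slc4a1, the anion exchanger of red cells, read 0.80 to 1.18 in KO replicates 4 to 6 and 1.29 to 3.15 elsewhere. Alas2, the first enzyme of red cell haem synthesis, read 3.96 and 3.64 in KO replicates 5 and 6 (replicate 4 had no value) and 4.33 to 5.09 elsewhere. Hba-a1, an alpha globin, was not lower, at 5.60 and 5.36 against 4.78 to 5.72. These are the 3 measured markers of 7 listed, all above 0 on every array with a value, and their part in the result for Slc25a37 was not tested.

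**Figure D5:**
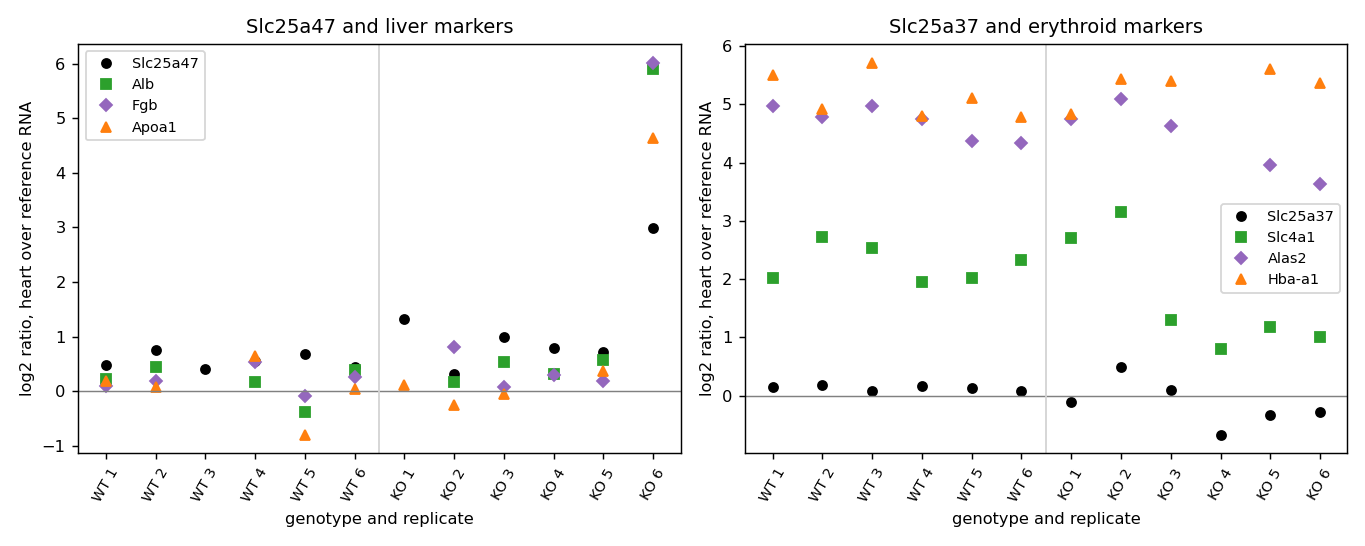
Log2 ratio of heart over reference RNA on each array, WT arrays on the left and KO arrays on the right, for Slc25a47 beside liver markers and for Slc25a37 beside red cell markers. KO replicate 6 stands out in Slc25a47 (2.99) together with Alb (5.90), and KO replicates 4 to 6 are low in Slc25a37 and Slc4a1.

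Slc25a40 differed by -0.29 ± 0.18 (SE, limma adjusted p = 0.942). Its lowest animal was KO replicate 4 at -0.90, and the difference was 0.03 with the probe that has a RefSeq accession. Slc25a4 differed by -0.28 ± 0.18 (SE, limma adjusted p = 0.942), with a mean of 3.86 ± 0.39 for WT and of 3.58 ± 0.41 for KO (SD, n = 6 each). Its highest animal was WT replicate 3 and its lowest KO replicate 4, the 2 arrays with most empty cells, and without them the difference was -0.07.

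By role, none of the members below passed the test, and the signs were as follows. In the ADP/ATP and phosphate group all 3 differences were negative (-0.28 to -0.11), and in the carboxylate group all 6 (-0.20 to -0.01). Of the 8 carriers of iron, glutathione, cofactors and nucleotides, 7 were negative, and the exception was Slc25a32 at 0.11. Of the 7 amino acid carriers, 6 were positive, and the exception was Slc25a15 at -0.07. In the remaining roles the signs were mixed. Positive were 3 of 7 ATP-Mg/phosphate and coenzyme A carriers, 2 of 3 uncoupling protein relatives and 3 of 6 other carriers. Across all features 49.7% of differences were positive. In 10 members the probes of the gene differed in sign between KO and WT, among them Slc25a12, Slc25a33 and Slc25a40. Some counted signs were near 0, as for Slc25a1 at -0.01 ± 0.24 (SE). The 4 heart isoforms had a median difference of -0.13, with Slc25a3 at -0.15 ± 0.11, Slc25a12 at -0.11 ± 0.12 and Slc25a11 at -0.03 ± 0.10 (SE). Slc25a13 differed by -0.16 ± 0.11 (SE). With a plain mean over its 3 probes, Slc25a3 differed by -0.54 (limma adjusted p = 0.951). No single probe was that low: fitted alone, they differed by -0.18, -0.25 and -0.11. These probes lay far apart in level and had empty cells on different arrays, which a plain mean does not allow for.

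The other members differed little. The ATP-Mg/phosphate and coenzyme A carriers ran from -0.13 for Slc25a41 to 0.18 for Slc25a23, with Slc25a24, Slc25a25, Slc25a42, Slc25a16 and Slc25a17 between. The uncoupling protein relatives Slc25a27, Slc25a14 and Slc25a30 differed by -0.09, 0.10 and 0.11. Slc25a22 and Slc25a38 differed by 0.04 and 0.02, and Slc25a2 by 0.14. Slc25a28, Slc25a36 and Slc25a39 differed by -0.05, -0.17 and -0.11. Slc25a46, Slc25a35, Slc25a43, Slc25a45 and Slc25a48 lay between -0.13 and 0.13, and Slc25a1 and Slc25a10 at -0.01 and -0.04. By dye, Slc25a35 differed by 0.13 in Cy3 and -0.46 in Cy5, and Slc25a30 by -0.24 and 0.39.

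The proteins that work beside the carriers gave 0 called differences as well, against 0.00387% of all features. The enzymes of the malate-aspartate shuttle (Got1, Got2, Mdh1 and Mdh2) were all above the reference, against 24.8% of all features. Their median level was 2.54. Got1 differed by -0.15 ± 0.12 and Mdh2 by -0.26 ± 0.35 between KO and WT (SE). The sign for Mdh2 rested on KO replicate 1, without which it was 0.09. Outer membrane channels and other transport proteins had 8 of 13 members measured. Of these, 6 were above the reference and 1 below, against 24.8% and 26.6% of all features. All 8 differences were negative (median -0.13), while 49.7% of differences over all features were positive. Among the 8 were Tspo, an outer membrane protein, at -0.14 ± 0.10 and Mpc1, a pyruvate carrier subunit, at -0.18 ± 0.14 (SE).

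The TIM22 machinery, which inserts carriers into the inner membrane, had 12 of 12 members measured. Of these, 6 were above and 3 below the reference, against 24.8% and 26.6% of all features. Agk, a subunit of the TIM22 complex, differed by -0.18 ± 0.11 and Tomm20, a receptor of the outer membrane, by -0.17 ± 0.12 (SE). Of the family members under other symbols 4 of 8 were measured. Ucp1, the uncoupling protein of brown fat, differed by -0.62 ± 0.55 (SE), with 3.81 in WT replicate 2 and at most 0.30 in KO. Without WT replicate 2 it was -0.09, and that array also read 3.93 for the fat gene Adipoq, against 0.83 at the highest among the other arrays. Further genes listed for fat did not peak there, with Plin4 at 5.18, Cidea at 5.56, Lep at 0.07 and Fabp4 at 5.68. Each was exceeded in KO: 5.73 in replicate 1, 6.01 in replicate 3, 0.42 in replicate 5 and 6.07 in replicate 2. The part of fat transcripts was not tested. Mtch2, an outer membrane insertase, differed by -0.10 ± 0.10 (SE). The limma adjusted p of these 8 partners with a printed difference ran from 0.942 to 0.965.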

How the data were processed

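The deposited table holds signed log ratios of heart over reference for 41174 probes on 12 arrays, processed by the authors before deposit; the labels' protocols give no normalization, and background correction, filters and log base are not given in the sources used here. The deposited values were used as given, as log2, with no further normalization. Per the labels' protocols, total RNA was extracted with a fibrous tissue kit and amplified to labelled cRNA with spike-in controls, and each animal was hybridised in 1 dye orientation, so that dye effects are averaged over animals and not removed within one. Amplification and labelling can compress ratios, which was not tested here.

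Of the probes, 31700 had 1 gene symbol in the platform annotation, 47 had several and 9427 had none; 31564 matched RefSeq by Entrez ID, and 0 symbols changed. Probes with fewer than 2 values in any combination of genotype and dye were left out. Probes of 1 gene were joined by an additive fit of probe and array. limma 3.58.1 (R 4.3.3) was fitted over 25821 features with genotype and heart dye as centred terms. The intercept is the level over the reference, p-values are two-sided with Benjamini-Hochberg adjustment over all features, and the threshold was 0.05. Gaps between related carriers are differences within an array, with no test. No arrays were identical: at most 0.186% of values were shared between 2 arrays. The pipeline was tested on simulated data and recovered 50 of 50 features changed by 1.5 or by 2, with 3 false calls over all sizes. Python 3.11.15 with pandas 2.3.3 and matplotlib 3.10.9 prepared tables and plots.

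Each animal is a separate replicate per the labels. Same-numbered animals share a dye. Their deviations from the genotype means correlated at -0.03 to 0.16, with 4 of 6 pairs over 0.1, and at -0.23 to 0.01 once the dye means were removed. Not every pair was over 0.1, so the numbers were not used as pairs. The lowest, median and highest animal, or each animal, were given for members of related pairs, the 5 highest and 5 lowest levels, and the 4 smallest p in each direction, and 2 partners per list by p. The members and all lists were chosen with earlier results of these data known. The alternatives were another or no dye term, array centring, quantile normalization, array weights, another variance model, other probe summaries and filters, each dye alone, and leaving out arrays.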

Additional observations from a re-analysis of the deposited data

Results flagged for a closer look

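Of 80 groups of animals tested, 5 held a KO animal farther from the rest than Dixon's critical value allows at the 95% level. Chance gives about 1 in 20 groups. Slc25a23 read 0.006 in KO replicate 1, while the other 4 KO animals with a value lay between 0.254 and 0.341. Slc25a48 read -0.572 in the same animal, and the nearest KO animal was at -0.105. Slc25a40 read -0.899 in KO replicate 4, an array with many empty cells, with the nearest at -0.193. Slc25a24 read -0.74 in KO replicate 3, above the nearest at -1.398, and Slc25a30 read -1.304 in KO replicate 2, below the nearest at -0.662.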

How the results depend on the processing

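In 28 alternative settings 0 members were called between KO and WT in each, with 0 to 4 at an unadjusted p under 0.05. Over all features 0 to 6 were called, with 0 of 25821 in Cy5 alone and 6 of 7352 with features near the reference left out. With each animal left out in turn, 18 to 20 members were above the reference and 8 to 10 below, and the median difference ran from -0.0546 to -0.0086. Among features on all 12 arrays, 7 of 14 members were above the reference, 3 were below, and the median difference was -0.098. With features near the reference left out, 5 of 18 members were below it, and with heart RNA in Cy5 alone 6 of 40 were. With probes of a RefSeq accession, an alternative chosen after seeing the data, Slc25a12 minus Slc25a13 was -1.034. With the replicate block, 0 members were called between KO and WT (1 at an unadjusted p under 0.05), 18 were above and 8 below the reference, and the median difference was -0.0154. The shares of all features above or below the reference, or at an unadjusted p under 0.05, were not computed in the alternative settings. Over single members and settings, 1020 of 1032 differences between KO and WT moved by less than the SD between animals and 12 by more, and 94 changed sign, none of them called. Of 1032 levels, 34 lost and 3 gained their call. Gaps between related carriers use no model and have no value under the dye term, block, weight, variance or single-probe settings. Signal over background is not in the table, so members near the reference may be dim probes in both channels, which was not tested.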
